A study of Mus musculus with 4 samples.

Results

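The genes described here were induced when female mouse embryonic stem cells (mESCs) differentiated for 6 days, and were less abundant at day 6 in both cultures carrying a hairpin against Smarca4 than in the culture carrying a control hairpin. They were selected on the measured values. A gene had to lie on an autosome from 1 to 19 other than 13, have a mean log2 CPM (CPM scales a gene's reads to the total reads of its library) over the 4 libraries of at least 0, be at least 2 log2 units higher in the control at day 6 than at day 0, and be at least 0.4 log2 units lower than the control with each hairpin. Of 25965 genes listed, 12269 passed the level filter on these chromosomes. Of those, 1290 were induced (10.5%) and 145 were also lower with both hairpins. These 145 are called blunted genes below. The filter used the mean over all 4 libraries, so a gene that was nearly silent at day 0 could pass it through its day 6 values, and 9 of the 145 had 0 reads and 17 had 1 to 3 reads at day 0.

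The study derived female mESC lines from a cross of FVB and CAST mice, so that every library shares the FVB/CAST F1 background. Day 0, the undifferentiated state, gave 1 library, whose label also calls it a non-silencing control, and 6 days of differentiation gave 3. Of these 3, Nons carried the non-silencing hairpin, and Smarca4.4 and Smarca4.6 each carried a different hairpin that targets Smarca4. All 3 received virus on day 2 and puromycin from day 3. No such days are given for day 0. In the rise from day 0 to Nons, differentiation therefore cannot be told apart from effects of virus and puromycin. For all 3 of them, even Nons, the genotype field reads Smarcc knockdown, so groups were taken from the titles. How many lines or cultures went into a library was not given in the sources used here. Each group is 1 library, and no difference has a replicate check. The intervals given are exact 95% counting intervals from the reads, which compare libraries and not conditions and do not cover the spread between cultures.

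Smarca4 is the motor ATPase of BAF, a remodelling complex that slides and evicts nucleosomes and so changes the access of transcription factors to DNA. Differentiating mESCs give up pluripotency and switch on genes of the cytoskeleton, of adhesion and of early lineages. Many genes of contractile cells are switched on through serum response factor (SRF), which binds the CArG box in DNA together with cofactors of the myocardin family that respond to actin assembly.

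The log2 CPM of Smarca4 was 7.93 at day 0, 7.84 in Nons, 7.04 with Smarca4.4 and 7.44 with Smarca4.6. The Smarca4.4 library held 57.3% and the Smarca4.6 library 75.8% of the Nons level, so both reductions were partial and the smaller one was in Smarca4.6. Smarca2, which encodes the alternative ATPase of the complex, was at 4.28 at day 0 and at 1.87, 2.08 and 2.00 in the Nons, Smarca4.4 and Smarca4.6 libraries. The target sites of both hairpins are shown because every difference below rests on them. Each matched Smarca4 transcripts on chromosome 9 (mm10, plus strand), that of Smarca4.4 in the 3′ UTR in exon 34 and that of Smarca4.6 in the coding part of exon 22.
Smarca4.4 target, chr9:21703327-21703348: actggagtcagacagtaataaa
Smarca4.6 target, chr9:21670504-21670525: actgatgaacactattatgcaa

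The total per library ranged from 18599402 reads at day 0 to 47143738 in Smarca4.4, and the smallest level that 3 reads can show ranged from 0.0636 CPM in Smarca4.4 to 0.161 CPM at day 0. The day 6 libraries also held reads of 4 Y-linked genes (106 in Nons, 156 with Smarca4.4 and 165 with Smarca4.6) although the cells are labelled female, and day 0 held none. The part of this in the results was not tested.

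Most induced genes were not lower with the hairpins. Of the 1290, 145 were blunted with both (11.2%), 196 were at least 0.4 lower with 1 hairpin and 949 with neither. Over all genes that passed the filter 3.55% were lower with both hairpins, and over the genes that were not induced 2.64%. The opposite change, at least 0.4 above Nons with both, was seen for 100 induced genes (7.75%) and for 4.81% of all genes. All these differences share the Nons library. A gene that was high by chance in Nons alone would count both as induced and as blunted, and such genes cannot be told apart from genes that the hairpins lowered.

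**Figure D1:**
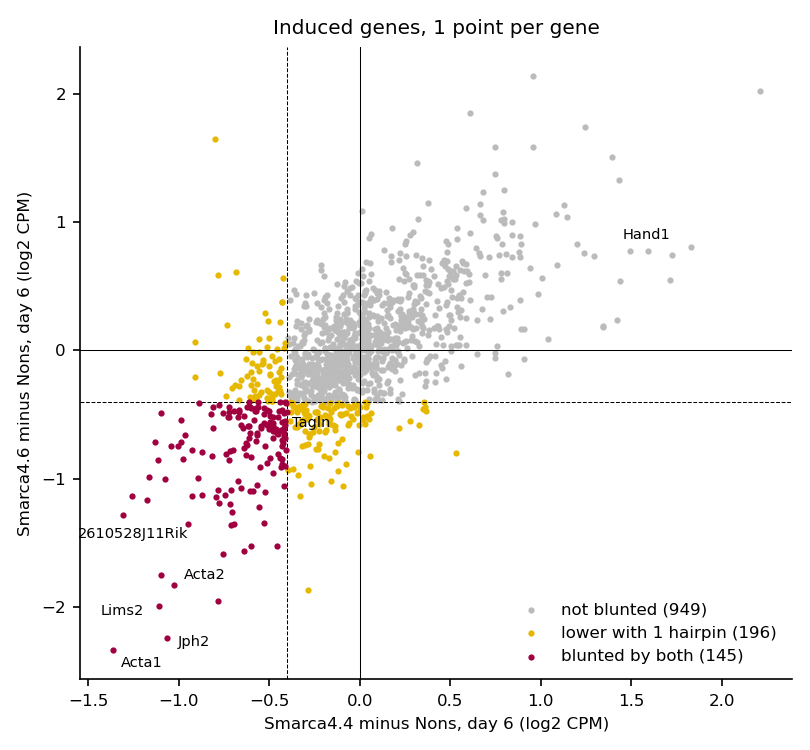
Difference from Nons at day 6 in Smarca4.4 (x axis) and Smarca4.6 (y axis), both in log2 CPM, for the 1290 induced genes, with 1 point per gene and dashed lines at the threshold of -0.4. The 145 blunted genes fill the lower left corner by construction, Acta1 and Jph2 lie farthest down, and the cloud of 949 genes that were not blunted is centred near 0.

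The blunted genes had a median log2 CPM of -0.41 at day 0, 3.55 in Nons, 2.91 with Smarca4.4 and 2.71 with Smarca4.6. The median difference from Nons was -0.60 in Smarca4.4 (range -1.36 to -0.40) and -0.68 in Smarca4.6 (range -2.33 to -0.40). Over all genes that passed the filter these medians were 0.029 and 0.060, and over the induced genes that were not blunted 0.014 and 0.055. At the median, 65.8% of the Nons level was present with Smarca4.4 and 62.4% with Smarca4.6. Only 8 of the 145 were lowered at least 2-fold with both hairpins, 15 with Smarca4.4 and 34 with Smarca4.6. The rule used the same reads as the counting intervals, so these only describe the depth. Both lay below 0 for 142 genes, and the exceptions were Eya4, Matk and Bcl6, each with 96 to 107 reads in Nons.

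The differences of the knockdown libraries from day 0 are the sum of the 2 differences that the rule used, and are given as a description. The median of the blunted genes was 2.92 above day 0 with Smarca4.4 and 2.69 with Smarca4.6. Both knockdown libraries were at least 2 log2 units above day 0 for 104 of the 145, and at least 1 unit above for 142. Of the 949 genes that were not blunted, 880 were at least 2 units above day 0 with both.

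The comparison with equally induced genes was made in bands. The share of blunted genes was 9.27% of the 561 genes induced by 2 to 3 log2 units, 13.2% of the 302 induced by 3 to 4, 11.6% of the 267 induced by 4 to 6 and 13.75% of the 160 induced by more than 6. The share raised with both hairpins stayed between 7.28% and 8.13% in the same bands. The Nons value sets the bands and enters both calls. Because the filter used the mean over all 4 libraries, induced genes with a low Nons value passed it more readily where the knockdown libraries were high, and the lowest band of Nons level had medians of 0.26 and 0.26 for its genes that were not blunted. The counts by level in Nons are therefore only a description. Below a log2 CPM of 2 in Nons, 29 genes were blunted and 58 raised, out of 290. Between 2 and 4 there were 54 blunted and 28 raised of 463, between 4 and 6 there were 50 and 12 of 355, and from 6 up there were 12 and 2 of 182. Among the 1000 induced genes with at least 2 in Nons, 116 were blunted and 42 raised.

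**Figure D2:**
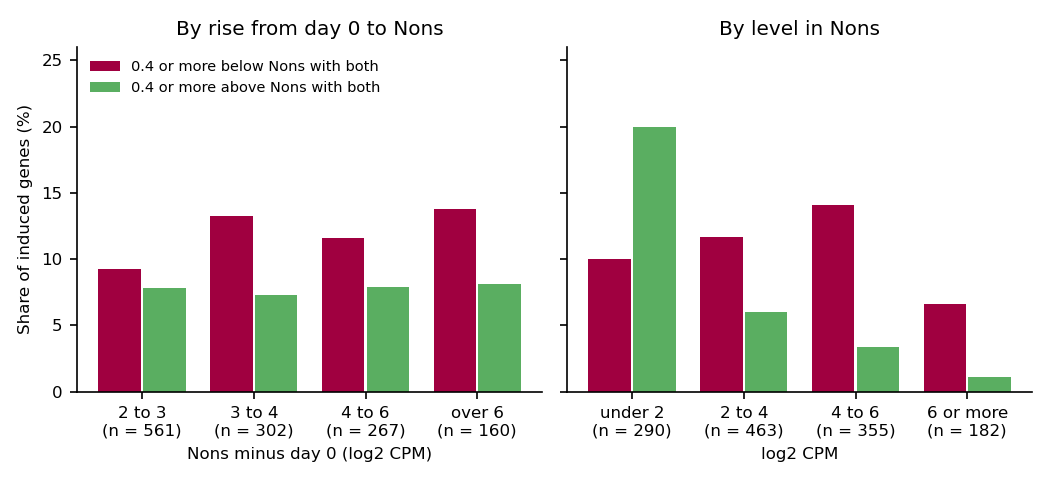
Share of induced genes (%) at least 0.4 log2 CPM below Nons with both hairpins (dark red) or above Nons with both (green), in bands of the rise from day 0 to Nons (left) and of the level in Nons (right), with the number of induced genes under each pair of bars. The blunted share is between 6.59% and 14.1% in every band, and the raised genes are 58 of 290 in the lowest band of Nons level and 2 of 182 in the highest, in bands set by the Nons value that enters both calls.

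The 15 genes with the largest fall in both libraries, ranked by the smaller of the 2 falls, were led by Acta1 and included several genes of muscle. Acta1 (chromosome 8, 123891767 to 123894736 in mm10), the alpha-actin of skeletal muscle, had 0 reads at day 0 and a log2 CPM of 6.53 in Nons, 5.16 with Smarca4.4 and 4.19 with Smarca4.6. It was at least 9.16 log2 units higher in Nons than the floor of 3 reads at day 0, and it kept 38.9% of the Nons level with Smarca4.4 and 19.8% with Smarca4.6. The differences were -1.36 (-1.45 to -1.28) and -2.33 (-2.45 to -2.22). Acta2 (chromosome 19, 34241090 to 34255336), the alpha-actin of smooth muscle, also had 0 reads at day 0, and was at 5.98 in Nons, 4.95 with Smarca4.4 and 4.15 with Smarca4.6. It kept 49.0% and 28.2% of the Nons level.

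Jph2 encodes junctophilin 2, which ties the plasma membrane of muscle cells to their calcium store. It had 1 read at day 0 and a log2 CPM of 4.68 in Nons, 3.62 with Smarca4.4 and 2.45 with Smarca4.6, which is a difference of -1.06 (-1.21 to -0.92) and -2.24 (-2.46 to -2.02). Lims2 encodes an adaptor of integrin adhesions (PINCH2), and was at 3.18, 2.07 and 1.19 at day 6 after 1 read at day 0. For all 4 of these genes Nons was highest, Smarca4.4 intermediate and Smarca4.6 lowest, and the interval of Smarca4.6 against Smarca4.4 lay below 0.

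Other leading genes were lower by similar amounts with both hairpins. 2610528J11Rik, with no role assigned here, was at -2.22 at day 0, 4.22 in Nons, 2.91 with Smarca4.4 and 2.93 with Smarca4.6. Rgl3, a guanine nucleotide exchange factor of the Ral pathway, was at 3.30, 2.13 and 2.14 at day 6 after 2 reads at day 0. Dhrs3, which reduces retinaldehyde and so limits retinoic acid, was at 0.74 at day 0, 3.50 in Nons, 2.24 with Smarca4.4 and 2.36 with Smarca4.6. Slc39a8, a zinc importer, was at 3.23, 2.15 and 2.23 at day 6. For each of these 4 the interval of Smarca4.6 against Smarca4.4 held 0.

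The remaining 7 of the 15 had fewer reads, between 112 and 211 in Nons. They were Csmd2, Nos1ap, Gm7694, Palm2, Gm2974, 1700003F12Rik and Rab20. Nos1ap, an adaptor of neuronal nitric oxide synthase, was at -1.41 at day 0 and at 1.65, 0.71 and 0.30 at day 6. Gm7694 overlaps it on the same strand, and reads in the shared part cannot be assigned. Gm2974 and another blunted gene, Gm3739, belong to a family of similar predicted genes on chromosome 14, so their reads are uncertain as well. Rab20, a small GTPase of endocytic vesicles, was at -1.90 at day 0 and at 1.89, 0.78 and 1.04 at day 6.

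**Figure D3:**
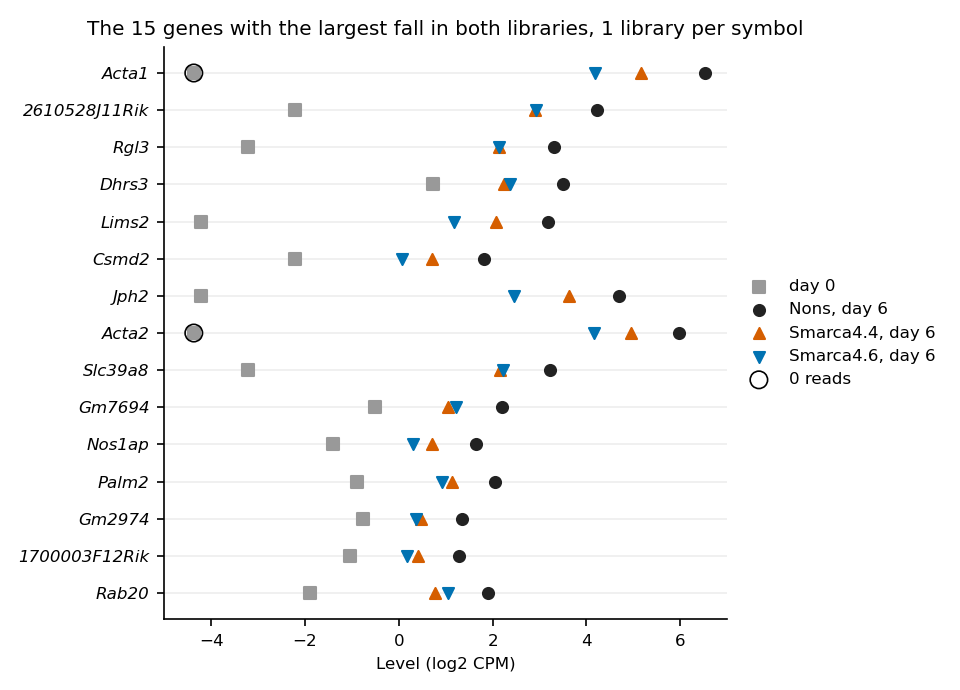
Level (log2 CPM, x axis) of the 15 genes with the largest fall in both libraries, with 1 symbol per library and open circles around values of 0 reads. Nons is the rightmost symbol for every gene and day 0 the leftmost, and for Acta1, Acta2, Jph2 and Lims2 Smarca4.6 lies well to the left of Smarca4.4.

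Contractile and cytoskeletal proteins formed the group with the lowest median in Smarca4.6. A role was assigned to 113 of the 145 genes after their values had been seen, in 9 groups, and the 16 genes of this group had a median difference of -0.59 with Smarca4.4 and -0.87 with Smarca4.6. Of the 16, 15 were lower in Smarca4.6 than in Smarca4.4. The same order held for 64.1% of the 145 blunted genes and 43.1% of all genes that passed the filter. Because the group was put together after the values had been seen, its count is only a description. Besides both actins they included Tagln, Csrp1, Lmod1, Des and Synpo2l of contractile cells, Tnnc2 and Mybpc2 of fast skeletal muscle, the keratins Krt19 and Krt17, the actin-binding proteins Cotl1, Espn and Vill, and Sept4, a septin.

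Tagln (chromosome 9, 45929628 to 45936058), which encodes the actin-binding protein transgelin, had the largest measured rise, from 7 reads at day 0 to 38984 in Nons. Its log2 CPM was -1.41 at day 0, 9.73 in Nons, 9.32 with Smarca4.4 and 9.07 with Smarca4.6. The difference of -0.42 in Smarca4.4 (-0.44 to -0.40) was close to the threshold of the rule, and that in Smarca4.6 was -0.66 (-0.69 to -0.64). Csrp1, a LIM protein of smooth muscle and its precursors, was at 6.17 at day 0 and at 9.13, 8.68 and 8.48 at day 6. Lmod1, an actin nucleator of smooth muscle, was at -0.41 at day 0, 3.25 in Nons, 2.79 with Smarca4.4 and 1.73 with Smarca4.6, a difference of -0.46 (-0.67 to -0.25) and -1.52 (-1.83 to -1.23). Des, the intermediate filament desmin, was at 0.59 at day 0 and at 4.38, 3.76 and 3.65 at day 6. Tnnc2, the calcium sensor of fast skeletal troponin, was at -2.22 at day 0 and at 2.11, 1.40 and 0.92 at day 6, from 198, 124 and 69 reads.

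Not all genes of smooth muscle behaved like this. Of 42 smooth muscle and SRF target genes listed, 34 passed the filter and 20 were induced, of which 5 were blunted (Tagln, Csrp1, Acta2, Des and Lmod1), 3 were lower with 1 hairpin and 12 with neither, against 11.2% blunted of all induced genes. The 34 genes had a median difference of -0.063 with Smarca4.4 and -0.23 with Smarca4.6, against 0.029 and 0.060 over all genes. Tpm1, which encodes the tropomyosin of smooth and striated muscle, lay just outside the rule. It was at 6.44 at day 0 and at 10.94 in Nons, 10.55 with Smarca4.4 and 10.39 with Smarca4.6, a difference of -0.39 (-0.40 to -0.37) and -0.55 (-0.57 to -0.53). Cnn1, the calponin of smooth muscle, had 2 reads at day 0 and was at 7.18, 6.84 and 6.80 at day 6, or -0.34 and -0.38 against Nons.

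Myl9 was induced to a similar extent as Acta2 and was not lower. This regulatory light chain of smooth muscle myosin had 0 reads at day 0 and was at 5.79 in Nons, 5.77 with Smarca4.4 and 5.73 with Smarca4.6, and both of its intervals held 0. Tpm2 differed by -0.024 and -0.19, Flnc by 0.083 and -0.19, Nexn by 0.20 and 0.16, and Zyx, which marks focal adhesions, by 0.22 and 0.39. Srf itself was at 5.31 at day 0 and at 6.76, 6.78 and 6.82 in the Nons, Smarca4.4 and Smarca4.6 libraries. Myocd, which encodes myocardin, had few reads at day 6, with 38 in Nons, 18 with Smarca4.4 and 43 with Smarca4.6.

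**Figure D4:**
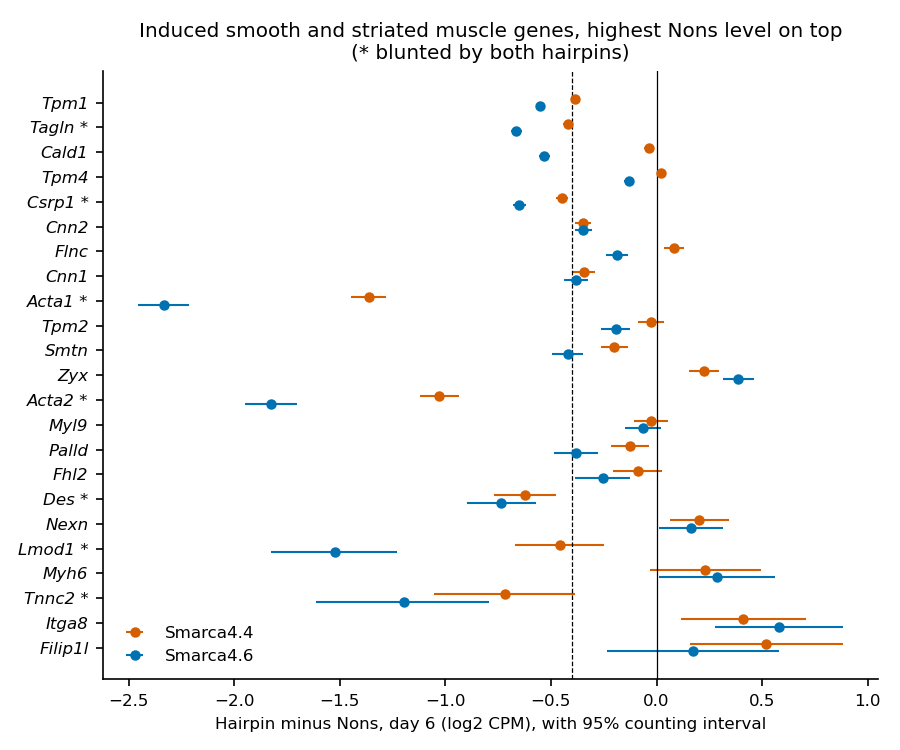
Difference from Nons (log2 CPM, x axis) in Smarca4.4 and Smarca4.6 with 95% counting intervals for the 23 induced genes of the smooth muscle and striated muscle lists, ordered by level in Nons, with asterisks on the 7 blunted genes. Acta1, Acta2, Tnnc2 and Lmod1 lie farthest to the left, whereas Myl9, Tpm2, Tpm4 and Flnc lie within 0.20 of Nons in both libraries.

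Of 40 genes of the striated muscle sarcomere only 9 passed the filter and 3 were induced, of which Acta1 and Tnnc2 were blunted and Myh6 was not. Those 9 had a median difference of 0.21 and -0.089. Actc1, the cardiac alpha-actin, met every difference of the rule but missed the level filter. It had 0 reads at day 0 and was at 2.43 in Nons, 0.30 with Smarca4.4 and 0.98 with Smarca4.6. Acta1, Acta2 and Actc1 are close paralogues, and reads in their coding parts can be split between them.

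Markers of differentiated muscle were detected, most of them with few reads. Of 15 markers of cardiac and skeletal muscle cells found, 4 passed the filter and 2 were induced, Des and Myh6. The summed level of all 15 was 21.2 CPM at day 0, 32.5 in Nons, 26.9 with Smarca4.4 and 23.6 with Smarca4.6. Des had 28 reads at day 0 and 954, 639 and 457 at day 6, more than any other marker in each day 6 library. The rule required Des to rise and to be lower with both hairpins. The sum therefore describes Des more than the other markers. Only 2 of the 15 were at or under the floor of 3 reads in all 3 day 6 libraries, and none was at 0 in all 3. Myh6 had 224, 271 and 218 reads, Nppb 196, 219 and 114, Myl7 34, 43 and 22, and Myh7 27, 34 and 26, and the other 10 had 0 to 14 reads in Nons. In the smaller day 0 library, Myh6 had 7 reads, Nppb 37, Myl7 81 and Myh7 11. Tnni1 went from 170 reads at day 0 to 7, 20 and 2 at day 6, and Tnnt2 from 29 to 11, 2 and 3. The myogenic factors Myod1 (3, 9 and 2 reads), Myog (3, 6 and 0 reads) and Myf5 (3, 0 and 2 reads) were at or near 0 in the Nons, Smarca4.4 and Smarca4.6 libraries. The summed level of 16 fibroblast and mesenchymal markers was 163.8 CPM in Nons, 199.0 with Smarca4.4 and 217.1 with Smarca4.6, and that of the smooth muscle and SRF list was 10889, 9498 and 8716 CPM. In these bulk libraries, fewer cells of a type and less RNA per cell cannot be told apart.

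The CArG box, CC followed by 6 bases that are each A or T and then GG, was searched on both strands in the stretch from 250 bases before to 50 bases after the start of each gene (RefSeq, GRCm38). An entry existed for 110 of the 145 blunted genes (75.9%) and for 9301 of the 12269 genes that passed the filter. Boxes stood in 4 of these 110 (3.64%), namely Acta1, D4Bwg0951e, Trnp1 and Gm3739, and in 111 of the 9301 (1.19%). Of the induced genes that were not blunted, 682 had an entry and 13 of these a box (1.91%). With entries missing from every set and only 4 boxes among blunted genes, the shares are given as a description and not compared. The 23 induced genes of both muscle lists had 21 entries, of which 4 held a box, and 1 of these was a blunted gene. These boxes are shown with 10 bases on each side and with the box in capitals, together with that of Actc1, because the same motif stood before genes that differed in response.
Acta1, blunted, chr8:123894829-123894858, minus strand: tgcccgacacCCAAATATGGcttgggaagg
Actc1, low level, chr2:114052903-114052932, minus strand: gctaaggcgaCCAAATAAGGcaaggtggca
Myl9, not blunted, chr2:156775293-156775322, plus strand: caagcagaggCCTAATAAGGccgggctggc
Cnn2, not blunted, chr10:79988534-79988563, plus strand: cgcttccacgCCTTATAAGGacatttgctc
Fhl2, not blunted, chr1:43163973-43164002, minus strand: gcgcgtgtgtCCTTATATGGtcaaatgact

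The box began 73 bases before the start of Acta1, 47 before Actc1, 161 before Myl9, 56 before Cnn2 and 31 before Fhl2. Against Nons, Acta1 and Actc1 were lower by more than 1 log2 unit with each hairpin, Cnn2 differed by -0.35 and -0.35, Fhl2 by -0.090 and -0.26, and Myl9 by -0.027 and -0.063. The promoters of Acta2, Des, Lmod1, Csrp1, Tnnc2 and Jph2 held no exact match in this window. That says nothing of boxes outside it, or of boxes inside it that depart from the pattern by a base. A match of letters is a description and does not show binding.

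**Figure D5:**
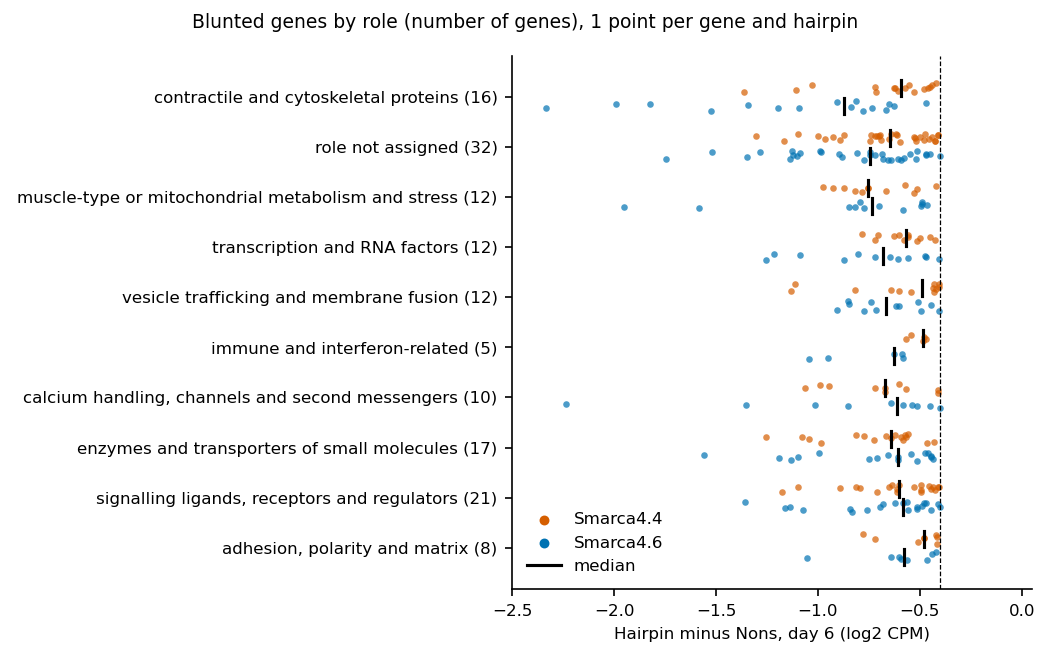
Difference from Nons (log2 CPM, x axis) of the 145 blunted genes in Smarca4.4 and Smarca4.6 by assigned role, with 1 point per gene and hairpin, black bars at the medians and a dashed line at the threshold of -0.4. The contractile and cytoskeletal group has the lowest Smarca4.6 median (-0.87) and reaches down to -2.33 for Acta1, and the adhesion group has medians of -0.48 and -0.58.

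Calcium handling, channels and second messengers made up 10 blunted genes, with medians of -0.67 with Smarca4.4 and -0.61 with Smarca4.6. Camk2d, the delta isoform of calcium/calmodulin-dependent kinase II, was at 1.91 at day 0 and at 5.74, 5.07 and 4.73 at day 6. Cacna1g, a T-type calcium channel, had 0 reads at day 0 and was at least 7.91 log2 units above the floor in Nons, with a log2 CPM of 5.28, 4.68 and 4.83 in the Nons, Smarca4.4 and Smarca4.6 libraries. Of the knockdown libraries, Smarca4.6 was the lower for Camk2d and Smarca4.4 for Cacna1g. Mcoln3, a cation channel of endosomes, had 1 read at day 0 and was at 4.70, 3.98 and 3.85 at day 6. The others were Pde1b, Dgka, Pla2g4a, Prkar1b, Nos1ap and Pkd1l1, besides Jph2.

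Metabolic and stress genes, several of them the muscle form of an enzyme, numbered 12, with medians of -0.75 and -0.74. Eno3, the muscle enolase, was at 1.43 at day 0 and at 4.66 in Nons, 3.90 with Smarca4.4 and 4.17 with Smarca4.6. Cpt1b, the muscle form of the enzyme that loads fatty acids for entry into mitochondria, was at -1.05 at day 0 and at 4.17, 3.66 and 3.59 at day 6. Slc2a4, the insulin-responsive glucose transporter, was at -1.22 at day 0 and at 1.39, 0.46 and 0.62 at day 6. The remaining genes were Crym, Chkb, Tspo, Hspb2, Macrod1, Dnajb4, Adssl1, Cox4i2 and Trim63, which encodes a ubiquitin ligase of muscle.

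The widely expressed counterparts of these metabolic genes, chosen after the values had been seen, were not induced by 2 log2 units. The blunted genes among them had to lie at least 0.4 below Nons, so their values are set side by side only as a description. Eno1 differed by -0.23 and -0.17 against -0.75 and -0.49 for Eno3, Slc2a1 by 0.050 and 0.11 against -0.93 and -0.77 for Slc2a4, and Cox4i1 by -0.23 and -0.075 against -0.82 and -0.82 for Cox4i2. Cpt1a, which was 3.56 log2 units lower in Nons than at day 0, differed by -0.67 and -0.76 against -0.51 and -0.58 for Cpt1b. Among cytoskeletal genes, Actb differed by -0.12 and -0.058 and Actg1 by -0.13 and -0.14. Jph1, a paralogue of Jph2 that was itself induced by 3.44, differed by -0.18 and -0.024 against -1.06 and -2.24 for Jph2.

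Hspb2 and Cryab lie beside each other on chromosome 9, on opposite strands. Their exons overlap in GENCODE M21, though not in the coordinates of the deposited table, and reads in a shared part cannot be assigned because no source says whether strand was used. Hspb2, a small heat shock protein of muscle, was at -1.90 at day 0 and at 3.38, 2.59 and 1.43 at day 6, or -0.79 and -1.95 against Nons. Cryab, another small heat shock protein, was at -1.05 at day 0 and at 4.04, 4.57 and 3.24, so that the 2 neighbours were on the same side of Nons in Smarca4.6 and on opposite sides in Smarca4.4.

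Signalling genes were the largest named group, with 21 blunted genes and medians of -0.60 and -0.59. App, the precursor of amyloid beta, was at 4.30 at day 0 and at 6.71, 6.26 and 6.19 at day 6. Rras, a Ras-family GTPase that acts on integrin adhesion, was at 2.74 at day 0 and at 6.47, 6.04 and 5.85. Dact3, an inhibitor of Wnt signalling, was at 1.18 at day 0 and at 5.39 in Nons, 4.59 with Smarca4.4 and 4.25 with Smarca4.6, a difference of -0.79 (-0.90 to -0.69) and -1.14 (-1.26 to -1.01).

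Rnf43, a ubiquitin ligase that removes Wnt receptors, was lower as well, at 2.48, 1.99 and 1.64 at day 6. Pik3ip1, which restrains PI3 kinase, was at 1.07 at day 0 and at 4.01, 3.31 and 2.66 at day 6. Flt4, a receptor of vascular endothelial growth factors, was at 4.25, 3.85 and 3.77 and lay close to the threshold in Smarca4.4, at -0.40. Nrtn, a ligand of the GDNF family, was at 3.38, 2.73 and 2.31. The remaining signalling genes included Relt, Sh2d3c, Prr5l, Rgs17, Ptpn18, Cish, Cblc, Dusp26, Map3k8, Stk32a, Rtn4r, Matk, Enho and Rgl3.

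Transcription and RNA factors accounted for 12 blunted genes, with medians of -0.57 and -0.68. Tbx20, a T-box factor of the developing heart, was at 0.031 at day 0 and at 3.81 in Nons, 3.03 with Smarca4.4 and 2.73 with Smarca4.6, a difference of -0.79 (-0.97 to -0.60) and -1.09 (-1.30 to -0.87). Msx1, a homeobox factor of mesenchyme and neural crest, was at -0.90 at day 0 and at 3.70, 3.14 and 3.29 at day 6. Nfatc4, a factor activated through calcineurin, was at 1.59 at day 0 and at 5.29, 4.66 and 4.57. Foxj1, the master factor of motile cilia, had 3 reads at day 0 and was at 2.74, 2.03 and 1.48 at day 6. Smarca4.6 was the lower library for Tbx20, Nfatc4 and Foxj1 and Smarca4.4 for Msx1. The other 8 were Ybx2, Scand1, Ikzf2, Creb5, Ebf4, Bhlha15, Eya4 and Bcl6.

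Other early mesoderm and cardiac factors were mostly not induced. Of 56 listed, 21 passed the filter and 7 were induced, of which Tbx20 and Msx1 were blunted and 5 were not, too few to set against the 11.2% of all induced genes. The 21 genes had a median difference of 0.039 and 0.082. Hand1, a factor of extraembryonic and lateral mesoderm, was at -1.90 at day 0 and at 2.68 in Nons, 4.28 with Smarca4.4 and 3.45 with Smarca4.6, which is 1.59 and 0.77 above Nons. Eomes differed by -0.20 and -0.31, Wt1 by -0.23 and -0.12 and Twist1 by 0.039 and 0.14.

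Enzymes and transporters of small molecules comprised 17 blunted genes, with medians of -0.64 and -0.61. Dio3, the deiodinase that inactivates thyroid hormone, was at 1.64 at day 0 and at 4.49, 3.50 and 3.78 at day 6, a difference of -0.99 (-1.14 to -0.83) and -0.71 (-0.87 to -0.56). Ctsc, the protease cathepsin C, was at 1.87 at day 0 and at 5.90, 5.33 and 5.46, and was the only blunted gene among 12 induced genes of a list of serpins and proteases, a share near the 11.2% of all induced genes. B4galnt2, a glycosyltransferase, was at 0.91 at day 0 and at 3.06, 2.42 and 1.497 at day 6. Gulo, the enzyme of the last step of vitamin C synthesis, was at -0.90 at day 0 and at 2.39, 1.35 and 1.64. Smarca4.4 was the lower library for Dio3, Ctsc and Gulo and Smarca4.6 for B4galnt2. In this group, 6 of the 17 genes were lower in Smarca4.6 than in Smarca4.4, against 64.1% of all blunted genes and 43.1% of all genes that passed the filter.

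The other enzymes and transporters were Hsd17b11, Nudt14, Gch1, Mgst3, Chst15, Sepp1, Naglu, Akr1b10, Gstt1, Entpd2 and Slc15a2, besides Dhrs3 and Slc39a8. On the side of retinoic acid, Dhrs3 was the only blunted gene among 3 induced genes of a list of Hox and retinoic acid response genes, too few to set against the 11.2%. Crabp2, which carries retinoic acid in the cell, was at 0.43 at day 0 and at 4.73, 4.37 and 4.13 at day 6, and Rdh10, which makes retinaldehyde, was at 2.54 at day 0 and at 3.16, 3.26 and 3.31.

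Adhesion, polarity and matrix genes numbered 8, with medians of -0.48 and -0.58. Podxl, a sialomucin of the apical membrane, was at 5.17 at day 0 and at 8.18, 7.70 and 7.59 at day 6. Bcam, a laminin receptor, was at 3.97 at day 0 and at 7.50, 6.99 and 7.04. Crb3, a polarity protein of epithelia, was at 0.48 at day 0 and at 6.05, 5.33 and 5.61. Col2a1, the collagen of cartilage and notochord, was at 1.87 at day 0 and at 5.67 in Nons, 5.25 with Smarca4.4 and 4.61 with Smarca4.6, and Col5a2, a fibrillar collagen, had 1 read at day 0 and was at 3.80, 3.02 and 3.38. Col2a1 was lowest in Smarca4.6 and Col5a2 in Smarca4.4, each with an interval between the hairpins that excluded 0. Cdh3, Emp2 and Lamb3 completed the group.

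Epithelial genes as a class lay near Nons at the median. Of 26 epithelial markers 21 passed the filter and 14 were induced, of which Krt19 and Cdh3 were blunted, 1 was lower with 1 hairpin and 11 with neither. The count of 2 of 14 is near the 11.2% of all induced genes. Krt19, a keratin of simple epithelia, was at 4.39 at day 0 and at 8.22, 7.67 and 7.32 at day 6, a difference of -0.55 (-0.59 to -0.52) and -0.91 (-0.95 to -0.86). Krt8, its usual type II partner together with Krt7, was at 0.91 at day 0 and at 9.91 in Nons, 10.10 with Smarca4.4 and 9.79 with Smarca4.6. The 21 markers had a median difference of 0.0083 and -0.085, and the summed level of all 26 was 832.0 CPM at day 0 and 4635, 4572 and 4098 CPM in the Nons, Smarca4.4 and Smarca4.6 libraries.

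Vesicle trafficking and membrane fusion made up 12 blunted genes, with medians of -0.49 and -0.67. Syt13, of the synaptotagmin family, was at 0.24 at day 0 and at 4.96, 4.56 and 4.19 at day 6. Syt17 of the same family, the synaptotagmin-like gene Sytl1 and the syntaxin Stx2 were blunted too. Dennd1c, an exchange factor of Rab35, was at -0.90 at day 0 and at 2.47, 1.34 and 1.75 at day 6. The others were Trappc6a, Snx21, Svop, Snph, Snx31, Rab20 and Exph5.

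Immune and interferon-related genes numbered 5, with medians of -0.49 and -0.63. All 5 were lower in Smarca4.6 than in Smarca4.4, too few to set against the 64.1% of all blunted genes. Bst2, which tethers budding virus particles, was at 3.96 at day 0 and at 7.01, 6.55 and 6.39 at day 6. Gbp3, an interferon-induced GTPase, had 0 reads at day 0 and was at 4.44, 3.87 and 3.40, and Oas3, an enzyme that senses double-stranded RNA, was at -0.047 at day 0 and at 3.08, 2.61 and 2.13. Plac8 and H2-Q2 were the other 2. Gbp3, Oas3 and H2-Q2 belong to families of similar genes, and their reads may be shared with relatives.

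Interferon-stimulated genes were blunted about as often as induced genes in general (11.2%). Of 55 listed, 40 passed the filter and 22 were induced, of which 3 were blunted and 16 were lower with neither hairpin. Their median difference was -0.066 and -0.11 over the 40. Isg15 had 0 reads at day 0 and was at 2.43 in Nons, 2.96 with Smarca4.4 and 2.99 with Smarca4.6, and H2-D1 was at 1.81 at day 0 and at 5.23, 5.72 and 5.86, both higher with the hairpins.

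No role was assigned to 32 of the blunted genes, whose medians were -0.65 and -0.74. Vwa5a was at 1.91 at day 0 and at 7.08, 6.46 and 6.48 at day 6, and Endod1 at 2.55 at day 0 and at 5.74, 5.32 and 5.02. Csmd2 had 4 reads at day 0 and was at 1.81, 0.71 and 0.058 at day 6. Over these 32 the lowest difference was -1.31 in Smarca4.4 (2610528J11Rik) and -1.75 in Smarca4.6 (Csmd2).

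Many lists held induced genes and no blunted one, but with 2 to 13 induced genes each and 11.2% of all induced genes blunted, a count of 0 is near the background. There was none among the induced genes listed under the TGF-beta and BMP pathway (8), TEAD and YAP targets (12), AP-1 and immediate early genes (11), adhesion and caveola genes (9), annexins and S100 genes (7), the IGF pathway (6), imprinted genes (13) or p53 targets (2). The same held for markers of pluripotent cells (2 induced), neurons (8), endothelial and blood cells (2), endoderm (4) and fibroblasts (3), and the cholesterol and lipid list held no induced gene. Of the 21 induced genes of the extracellular matrix list, Col5a2 alone was blunted, which is near the 11.2% of all induced genes as well. In all, 17 of the 145 blunted genes stood in any of the 23 lists. The lists are not complete, so each count holds only for the genes listed. Dio3, Bcam, Col2a1 and Lamb3, for example, were blunted and stood in none of them.

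The 2 hairpins differed from each other in another order than the level of Smarca4. Although Smarca4 was lower in Smarca4.4, 93 of the 145 blunted genes (64.1%) were lower in Smarca4.6. So were 121 of the 196 induced genes lower with 1 hairpin (61.7%), where the order is fixed by which hairpin met the rule. Over the other genes as a whole no such lean was seen. Of the induced genes that were not blunted, 46.2% were lower in Smarca4.6, and of all genes 43.1%. Of the 100 induced genes raised with both hairpins, only 38 were lower in Smarca4.6. Most of these thus lay farther from Nons in that library as well. Over all genes that passed the filter, 100 were lowered at least 2-fold with Smarca4.6 and 41 with Smarca4.4. Whether the lean of the blunted genes exceeds a wider spread of the Smarca4.6 library was not tested. The interval between the hairpins lay wholly on the side of Smarca4.6 for 50 blunted genes and of Smarca4.4 for 14, and for 102 and 52 of the genes lower with 1 hairpin. The first 50 included Acta1, Acta2, Tagln, Jph2, Lmod1 and Col2a1. With 1 library per hairpin, a difference between hairpins cannot be told apart from one between cultures.

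Genes near the threshold show how sharply the rule divides them. The 3 just inside were Enho (-0.61 and -0.40), Trim67 (-0.44 and -0.40) and Pde1b (-0.41 and -0.40). Just outside were Eml2 (-0.40 and -0.41), Sema3b (-0.49 and -0.40) and Nrip3 (-0.40 and -0.93), which count as lower with 1 hairpin. Both intervals lay wholly below -0.4 for 52 of the 145, so counting error alone leaves the side of the threshold uncertain for the rest.

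The 5 induced genes with the highest level in Nons among those not blunted were Peg10, H19, Krt8, Tuba1a and Tpm4. Peg10, an imprinted gene of retrotransposon origin, differed by 0.65 and 0.24, and H19, an imprinted noncoding RNA, by 0.54 and 0.042, the last of which turned to -0.018 when libraries were centred on their median. Tuba1a, an alpha-tubulin, differed by -0.0065 and -0.094, and Tpm4, a tropomyosin of non-muscle cells, by 0.023 and -0.13.

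Among features that the rule did not use, blunted genes had a median transcript length of 2834 bases (longest transcript, GENCODE M21), against 3426 for induced genes that were not blunted and 3341 for all genes that passed the filter. Their median GC content was 54.6%, against 52.9% and 50.2%, and their median number of exons 6, against 7 and 8. All 145 were found in the annotation, and 140 were protein-coding. Exons of 45 overlapped those of another gene, on the same strand for 13 and on the opposite strand for 33, and the reads of these are uncertain.

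Blunted genes lay on every autosome examined, from 5.80% of the induced genes of chromosome 17 to 17.6% of those of chromosome 5. Chromosome 11 held the most, 17 of 102. Another blunted gene lay within 100 kb of 20 of the 145 (13.8%), whereas a blunted gene lay that close to 53 of the 949 induced genes that were not blunted (5.58%). Any induced gene lay within 100 kb of 41.4% and 43.0%. The neighbours were Gm7694 and Nos1ap, Ybx2 and Slc2a4, Sept4 and Rnf43, Foxj1 and Rnf157, Cpt1b and Chkb, Crb3 and Dennd1c, Tnnc2 and Snx21, Bcam and Cblc, Bst2 and Tmem221, and Cish and Gm17041. Of these 10 pairs, Gm7694 and Nos1ap, Cpt1b and Chkb, and Cish and Gm17041 overlap and may share reads. Crb3 and Dennd1c lie 137 bases apart on opposite strands in the deposited table. Their exons overlap in GENCODE M21, so they may share reads too. Genes of a pair that shares reads are not separate calls, so the 13.8% may be too high beside the 5.58%. Genes within 100 kb of a blunted gene that were not induced themselves were lower with both hairpins in 21 of 486 cases (4.32%), against 269 of 10493 such genes elsewhere (2.56%).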

How the data were processed

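RNA was sequenced from 4 libraries in paired-end mode on an Illumina instrument. The authors trimmed reads with trim_galore and aligned them with hisat2 or tophat to mm10 in which positions differing between FVB/NJ and CAST/EiJ were masked, and the submitters' processing notes name bcl2fastq, HISAT2 and mm10. Gene values were made by the RNA-seq quantitation of SeqMonk, and whether it used strand was not given in the sources used here. The deposited values are log2 CPM for 25965 genes with both alleles combined.

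Within a library the values stood at multiples of what 1 read is worth, with 0 reads written as 0.9 of a read. Reads and totals were recovered from these steps, with 99.77% to 99.95% of nonzero values within 0.02 reads of a whole number. Differences were taken between log2 CPM values as deposited. With 1 library per group no test was run. Intervals are exact (Clopper-Pearson) 95% intervals for the ratio of reads between 2 libraries. Neither these nor the floor of 3 reads cover more than counting error, because amplified reads can stem from 1 molecule and a pair may have entered as 2 reads.

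The blunted genes and the 23 gene lists were chosen with earlier results of these data known. The genes named are the 15 with the largest smaller fall, the 10 with the highest level in Nons, the 5 with the largest induction, up to 5 blunted genes and up to 3 others per list, 3 on each side of the threshold, the 5 highest induced genes that were not blunted, and Smarca4 and Smarca2. Genes named as examples of a role, muscle markers, paralogues and neighbours were chosen after their values were seen, as were the roles. Coordinates are those of the deposited table. Promoters came from RefSeq on GRCm38 and transcripts from GENCODE M21 on the same assembly. Hairpin sequences are those the study lists. Alternatives were other level filters, a pseudocount of 1 CPM, centring, median-of-ratios size factors, other thresholds, chromosomes 13 and X, and counting intervals. Scripts ran in Python 3.11.15, with matplotlib 3.10.9 for plots and with pandas 2.3.3, numpy 2.4.6 and scipy 1.17.1.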

Additional observations from a re-analysis of the deposited data

Results flagged for a closer look

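Among the genes selected for naming and those added beside them, 5 lay above Nons with 1 hairpin and below it with the other, with both counting intervals on opposite sides of 0. The difference between the hairpins was not tested against the spread between cultures, since each hairpin is 1 library. Cryab, whose exons overlap those of the blunted gene Hspb2 on the other strand in GENCODE M21, differed by 0.53 in Smarca4.4 and by -0.80 in Smarca4.6. Krt8, a keratin of simple epithelia, differed by 0.19 and -0.12. Flnc, a filamin of muscle, differed by 0.083 and -0.19, and Tpm4, a tropomyosin of the general cytoskeleton, by 0.023 and -0.13. Spon1, a matrix protein, differed the other way, by -0.14 in Smarca4.4 and 0.19 in Smarca4.6.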

How the results depend on the processing

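No paired analysis was possible because there is only a single library in every group, so that no 2 groups share more than 1 replicate number. Where a value moved, the cause was not tested unless the setting itself changes how many genes enter.

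With a mean log2 CPM of at least 3 there were 47 blunted genes, 399 not blunted and 12 raised, a blunted share of 8.90% and medians of -0.50 in Smarca4.4 and -0.61 in Smarca4.6. Without a filter these were 378, 1470, 274, 16.2%, -0.78 and -0.88. A pseudocount of 1 CPM gave 87, 621 and 38 genes and a Smarca4.4 median of -0.55. All 47 and all 87 were among the 145. A blunting threshold of 0.6 gave 52 blunted and 50 raised genes, 4.03%, -0.79 and -1.01, and one of 0.3 gave 16.5%, -0.52 and -0.58. An induction threshold of 1 gave 222 blunted and 1839 not blunted genes and 9.08%, and one of 3 gave 93, 527 and 56 raised genes. Median-of-ratios size factors gave a share of 13.6%. They called 172 genes and centring 161, each with 143 of the 145. Requiring counting intervals below 0 left 142. Of 66 alternative values of these counts, shares and medians, 31 moved and are given here. H19 in Smarca4.6 went from 0.042 to -0.018 under centring.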

Other observations

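The differences that define the blunted genes were met by 378 autosomal rows at any level, of which 233 had a mean log2 CPM below 0 and were not counted. On chromosome 13, which the selection left out, none of 36 induced genes met them, against 11.2% of the induced genes on the autosomes examined. Whether the chromosomes differ was not tested, since all these genes come from the same 4 libraries. On the X chromosome 4 of 52 induced genes met them. Besides the overlapping noncoding genes Xist and Tsix, these were Bgn, which encodes the matrix proteoglycan biglycan, and Irs4, an adaptor of insulin receptor signalling. Bgn was at -1.90 at day 0 and at 2.25 in Nons, 1.61 with Smarca4.4 and 1.02 with Smarca4.6, and Irs4 at -0.22 at day 0 and at 1.88, 1.10 and 1.36.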
